A study of Homo sapiens with 32 samples.

Results

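Krüppel-like factors (KLF) are zinc-finger transcription factors, and the 10 members described here are KLF2, KLF3, KLF4, KLF5, KLF6, KLF9, KLF10, KLF11, KLF13 and KLF16. They were taken by gene symbol from the 18980 coding genes listed for each RNA-seq library. All 10 members passed the filter on low counts. Their transcript levels were read in 20 libraries of RH4, an established cell line of human alveolar rhabdomyosarcoma that carries a muscle-like expression program. The 16 treated libraries cover 4 compounds (JQAD, IHK-44, dCBP and A485) in all combinations of 2 doses, 1000 nM and 100 nM, and 2 times, 6 h and 2 h. Controls at each time were 1 library with DMSO, the solvent, and 1 called NT, an abbreviation that is not expanded. The study asks how far genes depend on the acetyltransferases CBP and p300. A485 is a catalytic inhibitor of these enzymes, and the labels give the other compounds by name only.

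The KLF proteins share a C-terminal set of zinc fingers that binds GC-rich and CACCC-type DNA, and differ in the part that recruits cofactors. KLF2, KLF4, KLF5 and KLF6 act mainly as activators and can bind acetyltransferases such as CBP and p300. KLF3 recruits the corepressor CtBP, and KLF9, KLF10, KLF11, KLF13 and KLF16 carry a motif that recruits the corepressor SIN3A. Many KLF transcripts are induced within hours by serum, stress, hormones or TGF-beta and are short-lived.

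There was 1 library for every combination of agent, dose and time, and no replicates. In the tests, libraries of a compound at different doses or times stood in for replicates, and the p-values measure the spread between those libraries, all from 1 cell line. Coding genes received between 13466631 and 16799327 counts per library, and the lowest count of a member in any library was 23. The RH4 markers MYOD1, MYOG, DES, FGFR4, CHRNG and CDH15 summed to between 2390 and 2603 CPM (counts scaled to the same library total) in the 4 control libraries. The epithelial, endothelial and blood markers were near 0, with EPCAM at 0 in every library and PTPRC at most at 0.0601 CPM. NT and DMSO gave similar member levels: the log2 ratio of NT to DMSO reached 0.35 in size at most, for KLF9 at 6 h (16.9 CPM in DMSO and 13.1 CPM in NT), and edgeR's quasi-likelihood test called 0 of 10 members (0 also at an unadjusted p under 0.05; 0% of 13260 genes called).

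Per unit length, KLF10 and KLF5 had the highest transcript levels in control cells and KLF2 the lowest. The mean level over the 4 control libraries was 24.0 FPKM (fragments scaled to gene length and library total) for KLF10, with a range of 20.6 to 27.4. KLF5 followed at 21.2 FPKM (18.2 to 24.6), and the ranges of these neighbours overlapped. KLF3 was at 16.7 FPKM (16 to 17.1), below both and above KLF16 at 13.4 FPKM (12.8 to 14.1), with no overlap between neighbours. KLF13 was at 10.8 FPKM (10.5 to 11.3) and KLF4 at 9.57 FPKM (7.82 to 12.3), which overlapped. The range of KLF11, 6.88 FPKM (5.69 to 8.23), overlapped with that of KLF4 and narrowly with that of KLF6 at 5.33 FPKM (4.98 to 5.82). KLF9 at 3.63 FPKM (2.46 to 4.45) and KLF2 at 1.57 FPKM (1.18 to 1.78) closed the order, and their ranges were apart from each other and from KLF6. KLF10 thus stood at the 82.4th percentile of coding genes and KLF2 at the 44.4th.

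The start regions of the members differed widely in base composition, which is shown because the series is about CpG density at genes that depend on CBP and p300. RefSeq windows of 300 bases (250 before and 50 after a start, GRCh38.p14) matched 8 of the 10 members, with 10 windows. KLF3 and KLF10 had none. Over all 35116 windows the median was 14 CpG dinucleotides, with quartiles at 4 and 28. The KLF16 window held 56, the KLF11 windows 50 and 40, KLF2 49, KLF13 43, and KLF4 and KLF6 33 each. The KLF5 windows held 4 and 37, and KLF9 held 1. Of the 10 windows, 8 were thus above the upper quartile, while KLF9 and the first KLF5 window were at or below the lower one. The 250 bases before the start are printed for 4 members, 5′ to 3′ on the gene's strand with CG dinucleotides in capitals: KLF4 as the member with the deepest fall, KLF6 and KLF9 as a CpG-rich and a CpG-poor start of genes that both fell, and KLF2 as the member whose level was not lower.
KLF4, chr9:107489770-107490019, minus strand: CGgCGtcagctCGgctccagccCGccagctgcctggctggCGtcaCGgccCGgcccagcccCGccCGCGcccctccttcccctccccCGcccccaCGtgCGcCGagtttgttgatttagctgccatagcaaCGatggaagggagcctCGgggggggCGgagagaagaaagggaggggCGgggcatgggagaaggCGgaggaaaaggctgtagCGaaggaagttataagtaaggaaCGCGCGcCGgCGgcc
KLF6, chr10:3785210-3785459, minus strand: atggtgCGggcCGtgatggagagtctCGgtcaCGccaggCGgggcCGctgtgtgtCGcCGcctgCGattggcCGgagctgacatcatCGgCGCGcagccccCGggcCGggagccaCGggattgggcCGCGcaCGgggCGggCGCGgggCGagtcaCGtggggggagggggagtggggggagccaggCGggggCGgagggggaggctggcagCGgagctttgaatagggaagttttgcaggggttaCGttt
KLF9, chr9:70414658-70414907, minus strand: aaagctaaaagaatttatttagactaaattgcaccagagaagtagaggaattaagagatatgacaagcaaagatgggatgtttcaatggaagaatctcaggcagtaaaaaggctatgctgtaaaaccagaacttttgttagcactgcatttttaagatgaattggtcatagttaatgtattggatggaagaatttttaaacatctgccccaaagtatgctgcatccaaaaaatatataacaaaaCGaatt
KLF2, chr19:16324576-16324825, plus strand: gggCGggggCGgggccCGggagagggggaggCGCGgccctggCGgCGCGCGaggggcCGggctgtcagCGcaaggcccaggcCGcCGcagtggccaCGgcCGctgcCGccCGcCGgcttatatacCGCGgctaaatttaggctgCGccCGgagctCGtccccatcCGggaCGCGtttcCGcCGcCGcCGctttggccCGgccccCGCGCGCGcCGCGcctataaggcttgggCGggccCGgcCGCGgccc
These stretches hold 25, 28, 1 and 41 CpG in the printed order. The GC box GGGCGG, searched on both strands of the 250 bases, occurred 4 times for KLF4, 2 times for KLF6, 4 times for KLF2 and not for KLF9, and 42.6% of all windows held it. The letters TATAA (either strand, 18.9% of all windows) stood 28 and 29 bases before the KLF4 start, where matches on opposite strands overlap, 31 and 133 bases before the KLF2 start and 16 bases before the KLF9 start. A match is a description of letters and not a site shown to be bound.

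**Figure D1:**
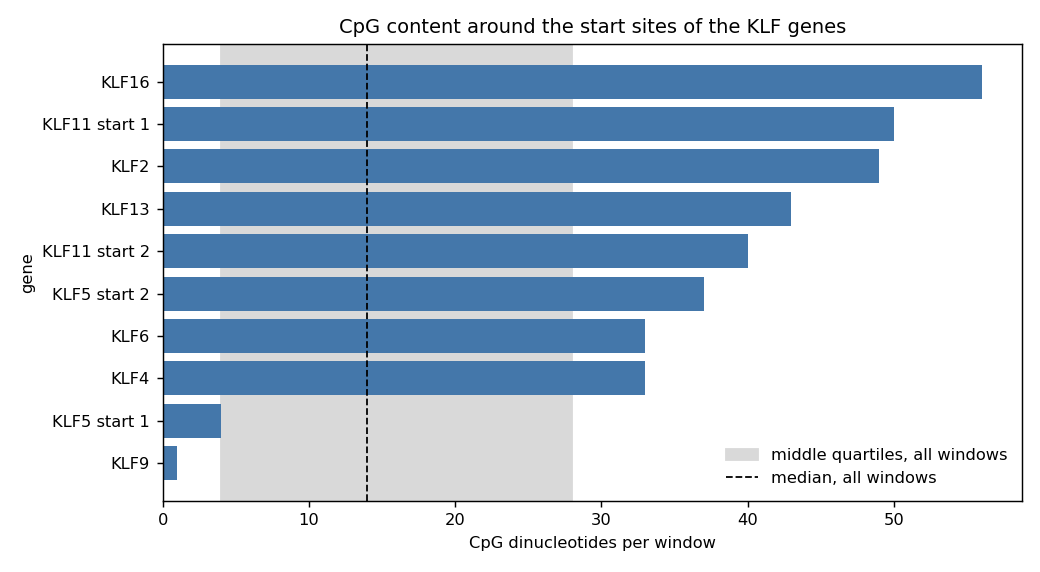
CpG dinucleotides per 300-base window around the annotated starts of 8 KLF genes (bars), with the median (dashed line, 14) and the middle quartiles (grey, 4 to 28) of all 35116 windows. KLF16 has the most, 56, and KLF9 the fewest, 1.

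Among the activators, KLF4, a pluripotency factor and regulator of differentiation, showed the deepest fall of all members. At 2 h it was at 35.3 CPM in DMSO and 28.2 CPM in NT, and at 6 h at 22.6 CPM and 24.2 CPM. With dCBP it was at 7.17 CPM (1000 nM) and 7.51 CPM (100 nM) at 2 h, and at 1.70 CPM and 3.40 CPM at 6 h. With IHK-44 it was at 5.35 CPM (1000 nM) and 6.19 CPM (100 nM) at 2 h, and at 3.19 CPM and 1.67 CPM at 6 h. All 8 libraries of these 2 compounds were below every control library. Against DMSO over both times, edgeR gave a log2 change of -2.71 with dCBP (SE 0.45, adjusted p = 0.0019, lower in 4 of 4 libraries). With IHK-44 the log2 change was -2.98 (SE 0.45, adjusted p = 0.000838, lower in 4 of 4). The lowest values rest on few reads: 23 counts with 1000 nM dCBP at 6 h gave an exact Poisson interval of 1.08 to 2.55 CPM, against 20.2 to 25.1 CPM for DMSO at 6 h. Such intervals cover counting error only.

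KLF4 also separated the doses of A485. At 1000 nM it was at 6.01 CPM at 2 h and 3.86 CPM at 6 h, and at 100 nM at 20.1 CPM and 14.1 CPM. The high dose was thus in the range of dCBP and IHK-44 at 2 h and just above it at 6 h, and the low dose lay between the high dose and the controls at both times. JQAD libraries had 31.0 CPM (1000 nM) and 35.2 CPM (100 nM) at 2 h, and 23.0 CPM and 23.6 CPM at 6 h. These lie within the range of the control libraries.

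KLF5, a proliferation-linked factor of epithelia and smooth muscle, fell with dCBP and IHK-44, and with A485 its level was low in 1 library of 4. Controls had 77.9 CPM (DMSO) and 78.9 CPM (NT) at 2 h, and 58.9 CPM and 59.6 CPM at 6 h. With 1000 nM A485 it was at 29.8 CPM at 2 h and 65.0 CPM at 6 h, and with 100 nM at 72.9 CPM and 79.8 CPM. Only the 1000 nM library at 2 h was below all controls, and both 6 h libraries were above their controls. The difference between the A485 effects at 6 h and 2 h, a log2 value of 0.85 (SE 0.44), did not pass the test (edgeR adjusted p = 0.556). With dCBP it was at 16.5 CPM (1000 nM) and 23.6 CPM (100 nM) at 2 h, and at 21.9 CPM and 19.2 CPM at 6 h. With IHK-44 it was at 18.9 CPM and 28.4 CPM at 2 h, and at 21.3 CPM and 38.0 CPM at 6 h, where the low dose was nearest to the controls. Over both times the log2 change against DMSO was -1.86 with dCBP (SE 0.31, edgeR adjusted p = 0.00192) and -1.47 with IHK-44 (SE 0.31, adjusted p = 0.00729), lower in 4 of 4 libraries each.

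KLF6, a widely expressed immediate-early factor, fell by a smaller amount with dCBP and IHK-44. Controls had 23.0 CPM (DMSO and NT) at 2 h, and 25.5 CPM (DMSO) and 27.0 CPM (NT) at 6 h. IHK-44 gave 7.65 CPM (1000 nM) and 10.5 CPM (100 nM) at 2 h, and 17.9 CPM and 16.5 CPM at 6 h. dCBP gave 12.6 CPM and 13.9 CPM at 2 h, and 17 CPM and 16.6 CPM at 6 h. All 8 values were below all controls, and the 2 h values were lower than the 6 h values for both compounds. A485 gave 12 CPM (1000 nM) and 18.9 CPM (100 nM) at 2 h, and 21.5 CPM and 27.1 CPM at 6 h, where the low dose reached the controls. The log2 change against DMSO was -0.81 with dCBP (SE 0.19, edgeR adjusted p = 0.01) and -1.05 with IHK-44 (SE 0.19, adjusted p = 0.00284).

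KLF2, known for quiescence of endothelium and T cells, was the only member of the 10 that was not lower with dCBP or IHK-44. Controls had 4.26 CPM (DMSO) and 3.25 CPM (NT) at 2 h, and 4.90 CPM and 4.83 CPM at 6 h. dCBP gave 6.43 CPM (1000 nM) and 5.23 CPM (100 nM) at 2 h, and 6.41 CPM and 8.07 CPM at 6 h, all above the highest control. Their exact Poisson intervals overlapped that of the highest control (DMSO at 6 h, 3.8 to 6.1 CPM), except for 100 nM at 6 h (6.7 to 9.7 CPM). That library also differed from the 1000 nM dCBP library at 6 h in genes outside the members. The related gene SP3 was at 176 CPM against 263 CPM, and the corepressor gene CTBP1 at 381 CPM against 308 CPM. Whether the KLF2 value shares in such a difference between libraries was not tested. IHK-44 gave 6.53 CPM and 5.67 CPM at 2 h, and 6.01 CPM and 4.88 CPM at 6 h, of which the last was within the control range. The log2 change against DMSO was 0.40 with dCBP (SE 0.20, edgeR adjusted p = 0.143) and 0.22 with IHK-44 (SE 0.20, adjusted p = 0.454), so neither passed. Against NT, dCBP gave 0.60 (SE 0.21, adjusted p = 0.045), and against the mean of DMSO and NT 0.50 (SE 0.16, adjusted p = 0.0242), which both passed. A485 gave 4.46 CPM (1000 nM) and 4.26 CPM (100 nM) at 2 h, and 3.49 CPM and 3.82 CPM at 6 h. Its 6 h values were below the 6 h controls, a difference that did not pass (log2 -0.50, SE 0.21, edgeR adjusted p = 0.115). JQAD gave between 4.05 CPM and 4.78 CPM. The A485 and JQAD values lay within the range of the controls when both times are pooled.

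KLF3, the CtBP-binding member, fell with dCBP and IHK-44 at both times. Controls had 88.3 CPM (DMSO) and 95.9 CPM (NT) at 2 h, and 94.2 CPM and 94.7 CPM at 6 h. dCBP gave 42.5 CPM (1000 nM) and 49.3 CPM (100 nM) at 2 h, and 42.7 CPM and 33.3 CPM at 6 h. IHK-44 gave 39.7 CPM and 43.3 CPM at 2 h, and 34.2 CPM and 34.7 CPM at 6 h. The 8 libraries did not overlap with the controls, whose spread was small. A485 gave 49.6 CPM (1000 nM) and 66.0 CPM (100 nM) at 2 h, and 54.8 CPM and 80.6 CPM at 6 h, below the controls and ordered by dose at each time. The log2 change against DMSO was -1.23 with dCBP (SE 0.17, edgeR adjusted p = 0.000866) and -1.38 with IHK-44 (SE 0.17, adjusted p = 0.000237). With A485 it was -0.60 (SE 0.17) and did not pass (adjusted p = 0.103).

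Of the SIN3A-binding members, KLF10, a TGF-beta-induced early gene, fell most. Controls had 77.8 CPM (DMSO) and 76.0 CPM (NT) at 2 h, and 58.8 CPM and 61.4 CPM at 6 h. dCBP gave 25.5 CPM (1000 nM) and 24.4 CPM (100 nM) at 2 h, and 13.3 CPM and 12.1 CPM at 6 h. IHK-44 gave 14 CPM and 27.7 CPM at 2 h, and 15.8 CPM and 20.2 CPM at 6 h. None of these 8 libraries came near a control. A485 gave 21.5 CPM (1000 nM) and 40.0 CPM (100 nM) at 2 h, and 32.2 CPM and 50.8 CPM at 6 h. At both doses the 6 h library was closer to its controls than the 2 h library. The log2 change against DMSO was -1.99 with dCBP (SE 0.31, edgeR adjusted p = 0.00143) and -1.91 with IHK-44 (SE 0.31, adjusted p = 0.0014).

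KLF9, induced by glucocorticoid and thyroid hormone, fell with dCBP and IHK-44. Controls had 23.1 CPM (DMSO) and 23.5 CPM (NT) at 2 h, and 16.9 CPM and 13.1 CPM at 6 h. A485 gave 10.0 CPM (1000 nM) and 12.2 CPM (100 nM) at 2 h, and 10.1 CPM and 12 CPM at 6 h. dCBP gave 8.57 CPM and 8.04 CPM at 2 h, and 11.9 CPM and 8.27 CPM at 6 h. All 8 were below the lowest control, NT at 6 h. IHK-44 gave 8.24 CPM (1000 nM) and 11.0 CPM (100 nM) at 2 h, and 9.92 CPM and 8.43 CPM at 6 h, also below it. The controls themselves were lower at 6 h than at 2 h (log2 -0.64, SE 0.18), a difference that did not pass (edgeR adjusted p = 0.249). Against DMSO over both times the log2 change was -1.21 with dCBP (SE 0.19, edgeR adjusted p = 0.00146) and -1.19 with IHK-44 (SE 0.19, adjusted p = 0.0014), while A485 gave -0.91 (SE 0.19), which did not pass (adjusted p = 0.0579).

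KLF11, KLF13 and KLF16 had lower levels at 6 h than at 2 h in most dCBP and IHK-44 libraries. KLF11, a TGF-beta-induced relative of KLF10, had 32.4 CPM (DMSO) and 29.6 CPM (NT) at 2 h, and 22.6 CPM and 24.1 CPM at 6 h. With IHK-44 it was at 24.7 CPM (1000 nM) and 26.7 CPM (100 nM) at 2 h, and at 10.2 CPM and 13.2 CPM at 6 h. With dCBP it was at 18.9 CPM and 22.0 CPM at 2 h, and at 13.1 CPM and 9.49 CPM at 6 h. The 6 h libraries were thus well below their controls and the 2 h libraries only somewhat. KLF13, a factor of T-cell and heart development, was between 73.6 CPM and 79.5 CPM in the controls and between 58.6 CPM and 60.3 CPM with dCBP or IHK-44 at 2 h. At 6 h it was at 36.0 CPM (1000 nM) and 41.5 CPM (100 nM) with dCBP, and at 35.5 CPM and 35.9 CPM with IHK-44. KLF16, a further SIN3A-binding repressor, was between 36.2 CPM and 39.7 CPM in the controls, and between 28.9 CPM and 34.1 CPM with dCBP or IHK-44 at 2 h. At 6 h it was at 18.0 CPM (1000 nM) and 31.0 CPM (100 nM) with dCBP, and at 19.2 CPM and 17.3 CPM with IHK-44. The 100 nM dCBP library stood apart from the other 3 and was closest to the controls. With A485 at 6 h the high dose gave 12 CPM for KLF11, 41.4 CPM for KLF13 and 18.1 CPM for KLF16, and the low dose 16.4 CPM, 62.6 CPM and 34.9 CPM, so the high dose was the lower one for each. Over both times KLF11 (log2 -0.93, SE 0.21, edgeR adjusted p = 0.00819) and KLF13 (-0.74, SE 0.21, adjusted p = 0.0225) fell with dCBP. With IHK-44 they also fell (KLF11 -0.73, SE 0.21, adjusted p = 0.0292; KLF13 -0.81, SE 0.21, adjusted p = 0.0207). KLF16 did not pass with either (-0.60, SE 0.27, adjusted p = 0.113; -0.74, SE 0.27, adjusted p = 0.0677). Against the mean of DMSO and NT, KLF16 passed with IHK-44 (-0.72, SE 0.23, adjusted p = 0.0241) and not with dCBP (-0.58, SE 0.23, adjusted p = 0.0543).

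**Figure D2:**
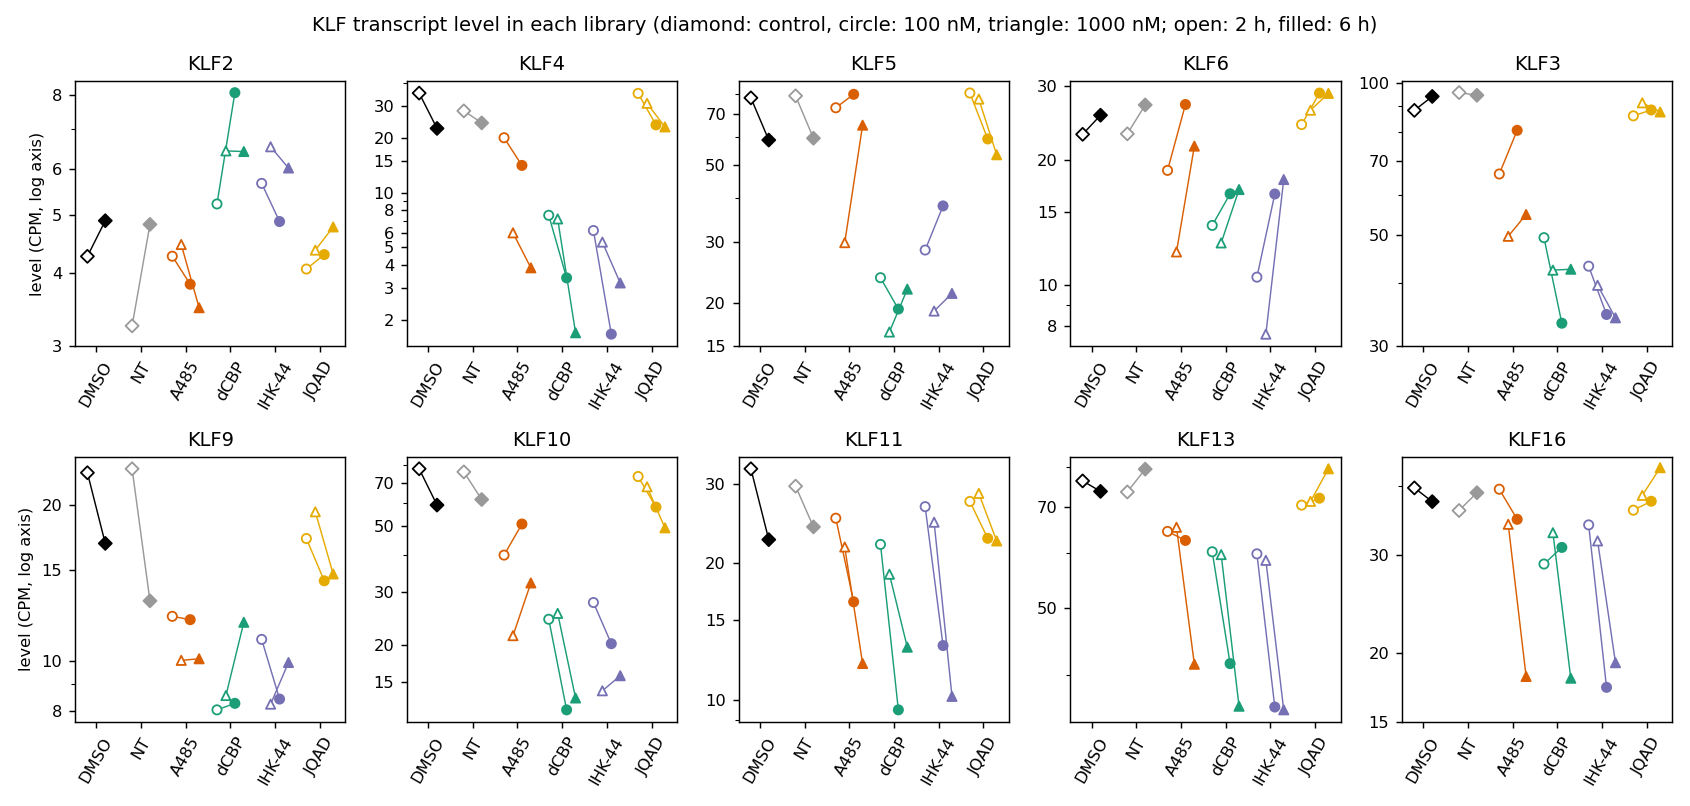
Transcript level of each KLF gene (CPM, log axis) in the 20 libraries, by compound. Diamonds are control libraries, circles 100 nM, triangles 1000 nM, open symbols 2 h and filled symbols 6 h, and a line joins the libraries of 1 dose. KLF4 is at 1.67 to 7.51 CPM with dCBP or IHK-44 against 22.6 to 35.3 CPM in controls.

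Counted against DMSO over both times, 8 of 10 members were lower with dCBP and the same number with IHK-44 (edgeR adjusted p under 0.05). Over all 13260 genes tested, 11.8% were lower with dCBP and 9.21% with IHK-44. In both cases the members not called were KLF2 and KLF16. The median log2 change of the 10 members was -1.07 with dCBP and -1.12 with IHK-44, against 0.05 and 0.04 over all genes. With A485, 0 of 10 were called (5 at an unadjusted p under 0.05, 2 by DESeq2), where 0.271% of genes were called in either direction. With JQAD, 0 of 10 were called (0 at an unadjusted p under 0.05, 0 by DESeq2, 0% of genes), and the member with the largest size was KLF9 at -0.28 (95% interval -0.68 to 0.13). These comparisons share the DMSO libraries. Without the DMSO library at 6 h the counts with dCBP and IHK-44 were 5 each. Against the mean of DMSO and NT the count with A485 was 5 (5.46% of genes called in either direction).

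At 2 h, against DMSO and NT together, dCBP lowered 7 of 10 members (KLF3, KLF4, KLF5, KLF6, KLF9, KLF10 and KLF11), with 2.67% of genes lower. IHK-44 lowered 6 (KLF3, KLF4, KLF5, KLF6, KLF9 and KLF10), with 2.45% of genes lower. KLF2 with dCBP was at a log2 change of 0.58 (SE 0.21) and did not pass (edgeR adjusted p = 0.114). The largest changes were those of KLF4 (log2 -2.50, SE 0.50 with IHK-44; edgeR adjusted p = 0.00851) and KLF5 (-2.02, SE 0.34 with dCBP; adjusted p = 0.00587). A485 lowered 1 member, KLF9 (-1.11, SE 0.19, adjusted p = 0.0383), where 0.0452% of genes were lower, and KLF10 at -1.36 (SE 0.29) did not pass (adjusted p = 0.0728). JQAD lowered none (0 at an unadjusted p under 0.05, 0% of genes). With 2 libraries a side these counts rest on single libraries: without 1000 nM dCBP at 2 h the dCBP count was 0, without NT at 2 h it was 1, without DMSO at 2 h or 100 nM dCBP at 2 h it was 4, and without 1000 nM IHK-44 at 2 h the IHK-44 count was 0. The A485 count was 0 in 11 of the 20 cases with 1 library left out. The KLF11 call with dCBP was lost with a term for NT against DMSO (adjusted p = 0.0542) and in 10 of the 20.

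At 6 h every member but KLF2 was lower with dCBP (9 of 10, where 22.4% of genes were lower) and with IHK-44 (9 of 10, 21.4%). KLF4 had log2 changes of -3.34 (SE 0.56, edgeR adjusted p = 0.000201) and -3.44 (SE 0.55, adjusted p = 0.000137). KLF10 had -2.40 (SE 0.31) and -1.91 (SE 0.30), and KLF3 had -1.47 (SE 0.18) and -1.62 (SE 0.18). KLF13 had -1.14 (SE 0.15) and -1.27 (SE 0.15). The smallest falls were those of KLF9 with dCBP (-0.73, SE 0.19, adjusted p = 0.00576) and of KLF6 with IHK-44 (-0.78, SE 0.18, adjusted p = 0.00304). KLF2 was at 0.42 (SE 0.20, adjusted p = 0.101) with dCBP and -0.01 (SE 0.20, adjusted p = 0.983) with IHK-44. A485 lowered 4 members, KLF3, KLF4, KLF11 and KLF13, where 8.7% of genes were lower, and JQAD lowered none (0 at an unadjusted p under 0.05, 0% of genes). The A485 count was 0 without NT at 6 h or without 1000 nM A485 at 6 h, 1 without DMSO at 6 h, 2 without 100 nM JQAD at 2 h and 7 without 100 nM A485 at 6 h. The KLF4 call with A485 was lost with DESeq2 (adjusted p = 0.0904), with a term for NT against DMSO (0.0587) and in 13 of 20 cases with 1 library left out. In bulk libraries, fewer cells with a transcript and less RNA per cell cannot be told apart. The 6 RH4 markers fell too at 6 h with dCBP and with IHK-44 (6 of 6 each), their sum ranging from 1201 to 2150 CPM with dCBP and from 1125 to 2128 CPM with IHK-44 over both times, and their part in the result was not tested.

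**Figure D3:**
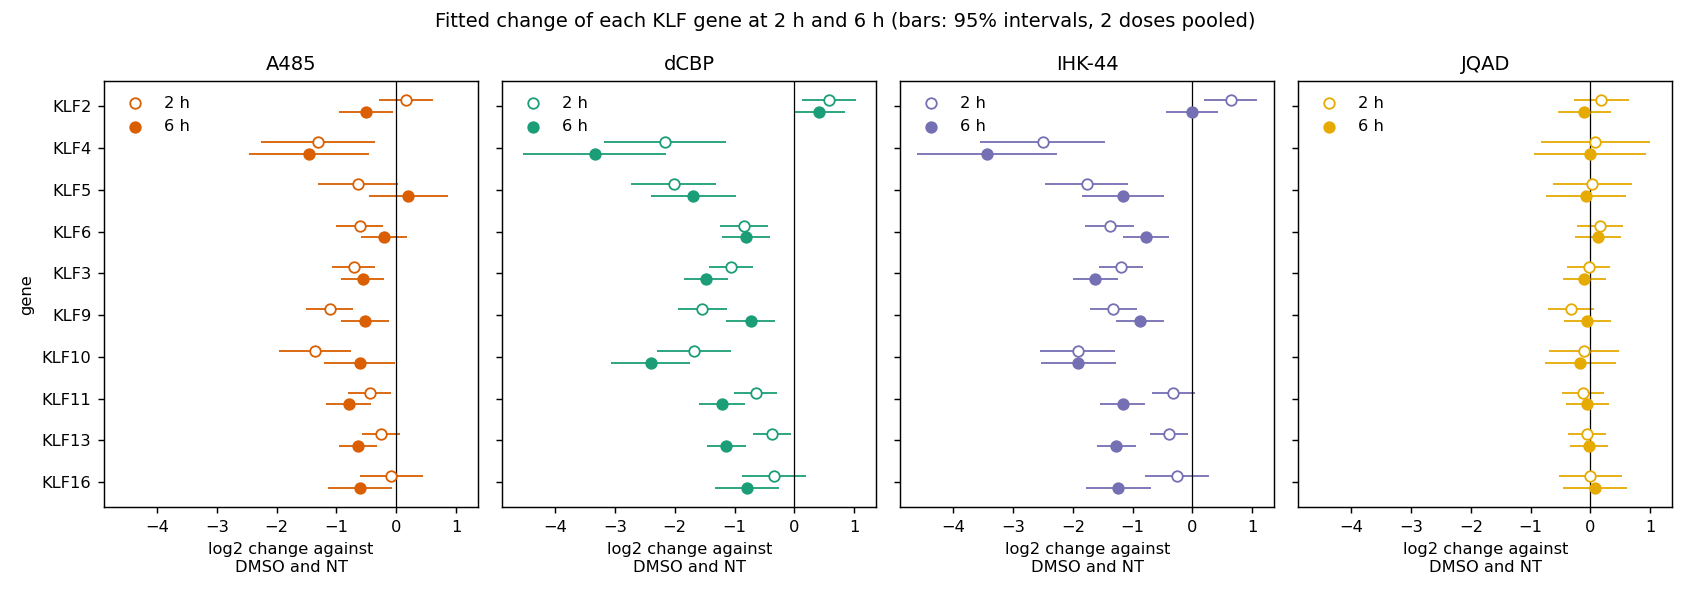
Fitted log2 change of each KLF gene against DMSO and NT of the same time, at 2 h (open) and 6 h (filled), with 95% intervals. With dCBP and IHK-44, KLF2, KLF3, KLF4, KLF11, KLF13 and KLF16 lie further left at 6 h, KLF2 without a called change. With JQAD all intervals include 0.

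The difference between times was tested in the same fit, as the effect at 6 h minus the effect at 2 h. KLF13 fell further at 6 h with dCBP, by a log2 value of -0.77 (SE 0.22, edgeR adjusted p = 0.0349), where 6.4% of genes were lower. With IHK-44, KLF13 (-0.88, SE 0.21, adjusted p = 0.0164) and KLF11 (-0.85, SE 0.25, adjusted p = 0.0386) fell further, where 7.76% of genes were lower. KLF16 with IHK-44 had a like value of -0.98 (SE 0.36) that did not pass (adjusted p = 0.0982). KLF9 with dCBP and KLF6 with IHK-44 had values of the other sign, 0.81 (SE 0.27, adjusted p = 0.0763) and 0.61 (SE 0.27, adjusted p = 0.176), which did not pass. With A485, 0 members were called (2 at an unadjusted p under 0.05, 0.00754% of genes), and JQAD likewise gave 0 (0 at an unadjusted p under 0.05, 0% of genes). In the controls, 0 members differed between 6 h and 2 h (2 at an unadjusted p under 0.05; 0.0754% of genes called). Leaving out single libraries, DMSO or NT among them, ended the calls of KLF13 with dCBP in 11 of 20 cases, of KLF11 with IHK-44 in 12 and of KLF13 with IHK-44 in 5.

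In single libraries, where no test can be made, 49 of the 160 values of members in treated cells were at least 2-fold lower than both DMSO and NT of the same time on the log2(CPM + 1) scale. None was 2-fold higher than both, where 1.26% of the values of all genes were. All 49 came from A485 at 1000 nM, dCBP and IHK-44. With 1000 nM A485, 4 members were lower at 2 h (KLF4, KLF5, KLF9 and KLF10; 1.34% of 12174 genes) and 2 at 6 h (KLF4 and KLF16; 3.62%). With 100 nM A485, 0 were lower at either time (0.0657% and 0.246% of genes). With dCBP, 5 and 6 members were lower at 1000 nM at 2 h and 6 h (1.46% and 5.94%) and 4 and 5 at 100 nM (1.1% and 6.54%). With IHK-44, 6 and 6 were lower at 1000 nM (1.54% and 6.49%) and 6 and 5 at 100 nM (1.23% and 5.67%). With JQAD, 0 were lower in any of 4 libraries (0.0164% and 0.0246% of genes at 1000 nM, 0.0329% and 0.00821% at 100 nM). KLF4 and KLF10 were lower in all 8 dCBP and IHK-44 libraries, whereas KLF6 was lower only in the 2 h libraries of IHK-44 and KLF2 in none.

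**Figure D4:**
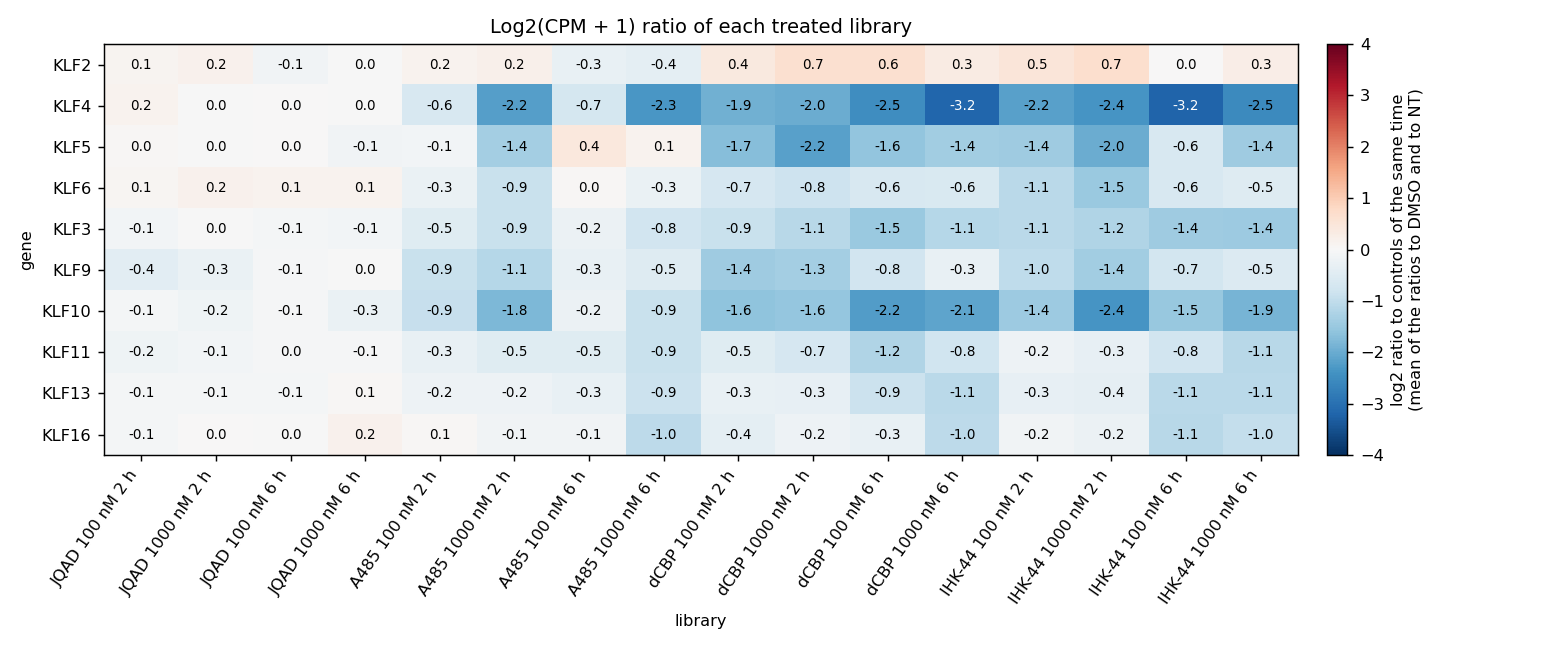
Log2 ratio of each treated library to its controls on the log2(CPM + 1) scale (mean of the ratios to DMSO and NT of the same time), for 10 KLF genes and 16 libraries. Blue is lower and red is higher, and KLF4, KLF5, KLF10 and KLF3 are blue across dCBP and IHK-44, while the JQAD columns are pale.

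With A485, 2 members were lower at the high dose than at the low dose. Over the 2 times as blocks, KLF4 had a log2 difference between 1000 nM and 100 nM of -1.87 (SE 0.25, edgeR adjusted p = 0.0052). The difference for KLF10 was -0.84 (SE 0.15, adjusted p = 0.0325). These were 2 of 10 members (0.83% of 12895 genes lower, 8 members at an unadjusted p under 0.05), and KLF5 at -0.85 (SE 0.21) did not pass (adjusted p = 0.105). With dCBP, 0 members were called (0 at an unadjusted p under 0.05, 0% of genes), with IHK-44 0 (2 at an unadjusted p under 0.05, 0.109% of genes) and for JQAD the count was 0 (0 at an unadjusted p under 0.05, 0% of genes). For KLF4 the interval of the dose difference was -1.05 to 0.21 with dCBP and -0.42 to 0.85 with IHK-44. Whether the dose differences themselves differed between compounds was not tested. With 4 residual degrees of freedom the A485 count was 0 without the 1000 nM or the 100 nM library at 6 h, and 1 without either A485 library at 2 h or any 1 JQAD library.

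**Figure D5:**
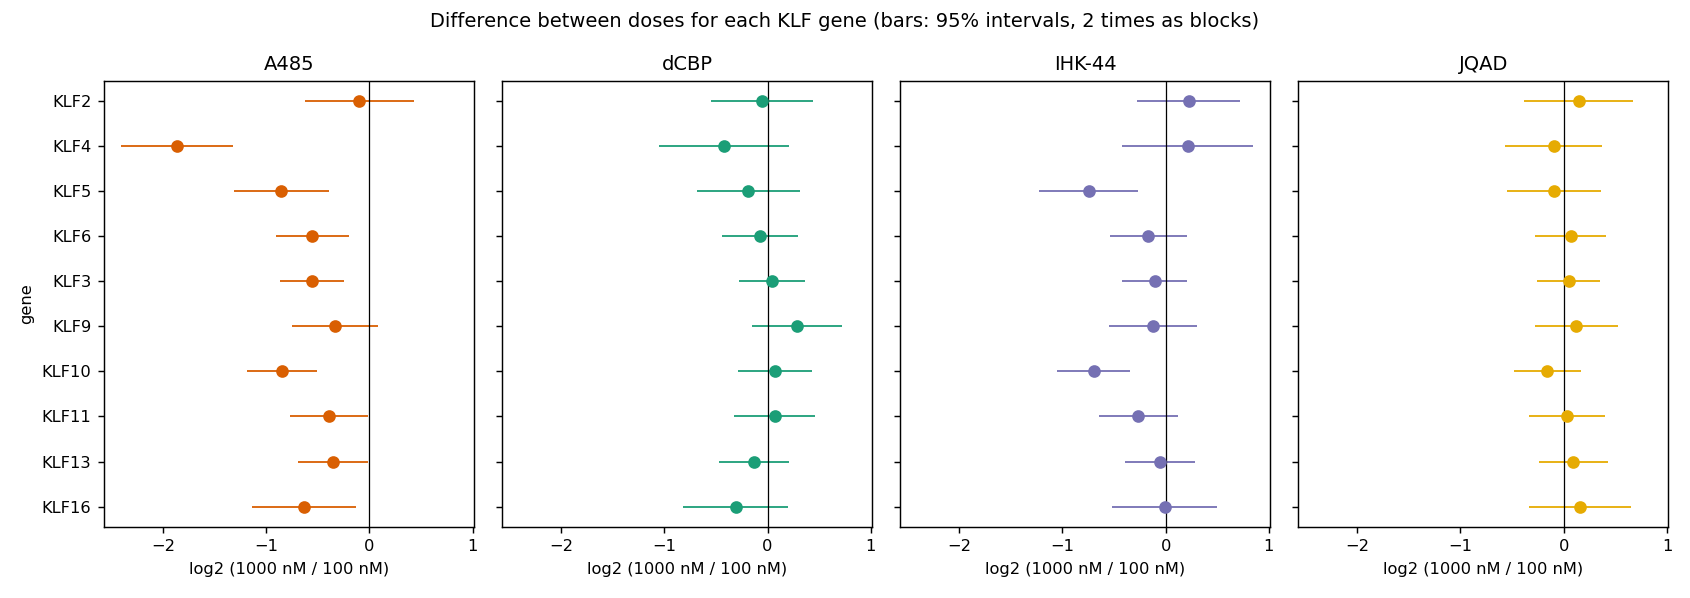
Log2 ratio of 1000 nM to 100 nM for each KLF gene and compound, with 95% intervals from the fit with time as a block. The A485 intervals of 8 members lie below 0, of which KLF4 and KLF10 passed the adjusted test, as do the IHK-44 intervals of KLF5 and KLF10, which did not pass, and all dCBP and JQAD intervals include 0.

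The compounds were compared in 6 pairs at matched doses and times, each adjusted over all genes. The model had a term for time and none for dose, so differences between doses are part of the spread. dCBP and IHK-44 gave 0 called members (0 at an unadjusted p under 0.05, 0 by DESeq2; 0% of genes). The difference of largest size was KLF5, -0.39 for dCBP minus IHK-44 (95% interval -0.96 to 0.18), and for KLF4 the interval was -0.65 to 1.19, so differences of that size are not excluded. A485 left KLF5 higher than dCBP did, by 1.66 (SE 0.27, edgeR adjusted p = 0.00769; 1 member, 0.249% of genes higher). It left KLF3 and KLF5 higher than IHK-44 did, by 0.78 (SE 0.15, adjusted p = 0.0213) and 1.26 (SE 0.26, adjusted p = 0.037; 2 members, 0.377% of genes higher). Against JQAD, A485 had 3 lower members, KLF3 (-0.56, SE 0.15), KLF4 (-1.43, SE 0.37) and KLF9 (-0.63, SE 0.16), with 1.7% of genes lower. dCBP differed from JQAD in all 10 members, 9 lower and KLF2 higher by 0.46 (SE 0.16, adjusted p = 0.0367), with 16.4% of genes lower and 18.9% higher. IHK-44 differed from JQAD in 9, all lower (16.1% of genes). The call of KLF2 against JQAD was lost with DESeq2 (adjusted p = 0.052) and without the filter on low counts (0.0593), and in 8 of 20 cases with 1 library left out. The call of KLF16 in the same pair was lost with scaling to the coding total (adjusted p = 0.0578) and with limma (0.0549), and in 6 of 20 cases. The KLF9 call of A485 against JQAD was lost with scaling to the coding total (edgeR adjusted p = 0.0527) and with limma (0.0545). With 1 library left out, the calls of A485 against JQAD were lost in 6 of 20 cases for KLF9, 6 for KLF4 and 7 for KLF3. The A485 pairs rest on single libraries, with 0 to 5 members called when 1 library was left out.

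The rest of the family and its partners moved less uniformly. Of 8 other KLF genes, 4 had enough counts, and KLF8, KLF17 and KLF18 were at 0 in every library. At 6 h, KLF7 (log2 -0.59, SE 0.16, edgeR adjusted p = 0.0065 with dCBP) and KLF12 (-0.82, SE 0.20, adjusted p = 0.0036), a CtBP-binding relative of KLF3, were lower, and both were lower with IHK-44 as well. With dCBP the 100 nM library was the lower one for both. KLF7 was at 19.3 CPM (1000 nM) and 13.3 CPM (100 nM), against 20.4 CPM in DMSO and 23.4 CPM in NT. KLF12 was at 46.2 CPM and 26.2 CPM, against 57.8 CPM and 56.1 CPM. Over all genes 23.2% were higher at 6 h with dCBP and 20.7% with IHK-44. KLF15, a metabolic regulator, was called higher with dCBP (0.84, SE 0.30, adjusted p = 0.033) and not with IHK-44, though its levels were close. It was at 5.09 CPM and 6.37 CPM with dCBP, and 5.17 CPM and 5.24 CPM with IHK-44 (1000 nM first). The controls had 2.51 CPM (DMSO) and 3.22 CPM (NT). The median of the 4 was -0.06 with dCBP and -0.12 with IHK-44 beside 0.06 over all genes for each. Among 6 tested SP genes, the closest relatives of the KLF family, SP3 was lower with dCBP (-0.55, SE 0.13). It was at 263 CPM with 1000 nM dCBP and 176 CPM with 100 nM, against 289 CPM (DMSO) and 285 CPM (NT). The fall thus came mostly from the 100 nM library. SP8 was called higher with dCBP and IHK-44, but no fold is given, since it was at 0.0644 to 0.187 CPM in the controls and passed the filter on low counts through treated libraries. At 6 h it was at 1.33 CPM and 1.06 CPM with dCBP, 1.5 CPM and 0.952 CPM with IHK-44, 1.12 CPM and 0.75 CPM with A485, and 0.646 CPM and 0.666 CPM with JQAD (1000 nM first). The list medians were 0.08 and 0.04.

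Of the 6 corepressor genes, CTBP2 (-1.0, SE 0.12 with dCBP; -1.18, SE 0.12 with IHK-44), HDAC2 and SIN3A were lower at 6 h with both compounds, and HDAC1 and SIN3B were higher with both. Over all genes at 6 h, 22.4% were lower and 23.2% higher with dCBP, and 21.4% and 20.7% with IHK-44. In the ERK5-MEF2 arm, which induces KLF2 and KLF4 in endothelium, 1 of 7 genes was lower and 1 higher with dCBP. MEF2C fell (-2.24, SE 0.25, edgeR adjusted p = 9.1e-06) and the kinase gene MAP3K3 rose (0.82, SE 0.12, adjusted p = 6.2e-05). With IHK-44, MEF2C (-2.14, SE 0.25) and MEF2D (-0.68, SE 0.19) were lower and MAP3K3 higher. In these libraries KLF4 was lower and KLF2 was not, and a link to this arm was not tested. The medians over the 7 genes were -0.05 with each compound, and over the 6 corepressor genes -0.14 and -0.24. The median over all genes was 0.06 with each compound.

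Genes known to be induced by TGF-beta or glucocorticoids, signals that also induce KLF10, KLF11 and KLF9, were lower in most cases at 6 h. The TGF-beta-induced genes SMAD7, SKIL and CCN2 were lower with dCBP and with IHK-44. CCN2, a matricellular protein gene, had -2.06 (SE 0.27) for dCBP and -2.42 (SE 0.27) for IHK-44, and SMAD7, an inhibitor of TGF-beta signalling, had -1.83 (SE 0.39) and -1.79 (SE 0.38). Of 3 tested glucocorticoid-induced genes, TSC22D3 (-1.48, SE 0.14 with dCBP; -1.55, SE 0.14 with IHK-44) and PER1 were lower with both. FKBP5 was called higher with dCBP (0.44, SE 0.14, edgeR adjusted p = 0.02) and not with IHK-44, though its levels were close. It was at 18.1 CPM and 16.8 CPM with dCBP, and 17.8 CPM and 15.4 CPM with IHK-44 (1000 nM first). The controls had 11.7 CPM (DMSO) and 11.3 CPM (NT). Of 7 tested genes described as KLF targets, 6 were lower with each compound, where 22.4% of all genes were lower with dCBP and 21.4% with IHK-44: CDKN1A, CCND1, S1PR1, PDGFA, ENG and TXNIP. CCND1, the cyclin D1 gene, had -2.36 (SE 0.25) with both. S1PR1, a receptor gene that KLF2 activates in T cells and endothelium, had -2.33 (SE 0.39) for dCBP and -1.85 (SE 0.37) for IHK-44. KLF2 itself was not lower, and a link between these genes was not tested. LGALS3 was called higher with IHK-44 (0.71, SE 0.21, adjusted p = 0.014) and not with dCBP. It was at 5.41 CPM and 5.83 CPM with IHK-44, and 5.16 CPM and 4.53 CPM with dCBP (1000 nM first). The controls had 2.78 CPM (DMSO) and 3.35 CPM (NT). The medians of this list were -1.04 and -1.24, beside 0.06 over all genes for each compound, and nothing particular to the lists follows from them. With A485 at 6 h, CCN2 (-1.13), 4 of 7 KLF targets and 4 of 6 RH4 markers were lower (8.7% of all genes), and with JQAD 0 genes of any list were called.

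The genes whose levels ran most like those of the members over the 20 libraries are given as a description, since all points share the treatments. Pearson's r of log2(CPM + 1) was computed against 10554 genes for the 9 members with a mean of at least 5 CPM that the rule covered. KLF4 ran most like HS3ST3B1 (r = 0.984), DACT1 (0.982) and VPS37B (0.982). KLF3 ran most like STX11 (r = 0.983), MYCN (0.977) and IRF2BP2 (0.976), and KLF5 like S1PR1 (0.971), TENT5A (0.963) and ZNF217 (0.960). For KLF10 these were RND3 (r = 0.973), SIX4 (0.967) and ZNFX1 (0.965), and for KLF13 CAVIN2 (0.985), BLCAP (0.985) and GPRC5A (0.984). KLF11 ran most like FAM107A (r = 0.974), TBC1D9 and LMO7, and KLF16 like SHC1 (0.969), SEMA6B and PLXND1. KLF6 and KLF9 had the lowest best matches, PPP1R18 (r = 0.936) and ZFP36L2 (0.913).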

How the data were processed

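RNA-seq of 20 RH4 libraries was analysed, 1 per condition. Per the submitters' processing notes, STAR 2.5.3a, RSEM 1.3.3 and the hg38 build were among those used, with no role or order given. The authors deposited per gene an expected count, as RSEM gives it, TPM and FPKM, all as deposited per the file headers. The authors also deposited a normalised value that, tested on the files, is the expected count scaled to the total of the coding genes (CPM). Of the expected counts, 88.5% were whole, and all were rounded for the count tests. FPKM was used only to order levels between genes and TPM only as an alternative.

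From the expected counts, edgeR 4.0.16 (R 4.3.3, TMM scaling, filterByExpr, quasi-likelihood test, Benjamini-Hochberg adjustment over all genes tested, threshold 0.05) fitted 3 models: compound and time (13 residual degrees of freedom), compound at each time against DMSO and NT together (10), and dose within compound with compound and time as blocks (4). SE is the size of the log2 change divided by the square root of F, and intervals are 95%. DESeq2 1.42.0, limma 3.58.1, other scalings, no filter, other control sets and leaving out each library were alternatives, and scaling to the coding total was chosen after seeing the data. Tested on simulated data, in which 200 genes were given a log2 change of 1, edgeR recovered 99% (IHK-44 minus DMSO, 12885 genes), 96.5% (IHK-44 at 2 h, 12860 genes), 95.5% (IHK-44 at 6 h, 12856 genes), 69% (IHK-44 time difference, 12845 genes), 97% (A485 minus dCBP, 12866 genes) and 90.5% (A485 dose, 12591 genes). In these simulated comparisons, between 7 and 14 unchanged genes were also called. In the real data the common coefficient of variation between libraries differed by model. It was 0.141 for compound and time, 0.104 for compound at each time and 0.112 for dose. The simulated data used the value of compound at each time, 0.104, for all genes and comparisons, which is below that of the other models. A match to the spread of each gene was not checked. The recovery rates may therefore overstate what the tests recover in these data. Single-library ratios used log2(CPM + 1) in genes with a mean of at least 1 CPM.

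The named genes were all 10 members, the called genes of the gene lists and, as likeness, the 3 genes of highest r per member. The members and lists (other KLF, SP, corepressors, ERK5-MEF2, glucocorticoid, TGF-beta, KLF targets, cell type markers) were chosen with earlier results of these data known. For the TGF-beta list, single genes are given without a count or median, since 1 gene is not reported here. Marker lists of epithelium, endothelium, blood and mature muscle summed to at most 0.887, 1.08, 0.149 and 0.74 CPM in any library. ChIP-seq and ChRO-seq samples were not analysed here. Python 3.11.15, pandas 2.3.3 and scipy 1.17.1 were used for levels and promoter windows.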

Additional observations from a re-analysis of the deposited data

Results flagged for a closer look

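In 3 cases the effect at 6 h differed from that at 2 h by the test of the difference itself (edgeR's quasi-likelihood test, adjusted over all genes). With dCBP, the effect on KLF13 was lower at 6 h by a log2 value of -0.77 (95% interval -1.22 to -0.31). With IHK-44 it was lower by -0.88 for KLF13 (-1.34 to -0.43) and by -0.85 for KLF11 (-1.37 to -0.33). The call of KLF11 was lost with scaling to the coding total (-0.73, adjusted p = 0.0603), with limma (-0.69, adjusted p = 0.0723) and with a term for NT against DMSO (-0.85, adjusted p = 0.0536).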

How the results depend on the processing

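No direction of a called member reversed under any setting run, and the directions of members not called were not checked. Counts of called members moved as follows. A485 minus DMSO gave 2 with DESeq2 and 5 against the mean of DMSO and NT. A485 minus dCBP gave 3 with scaling to the coding total, 2 without the filter, 4 with DESeq2 and 3 with limma. A485 minus IHK-44 gave 5 and A485 minus JQAD 6 with DESeq2. A485 at 2 h gave 4 without the filter, 3 with DESeq2 and 0 with a term for NT. The dCBP time difference gave 2 with scaling to the coding total, without the filter and with limma. The IHK-44 time difference gave 1 with scaling to the coding total, with limma and with a term for NT. The A485 dose difference gave 1 with scaling to the coding total and with limma. At a 1.5-fold threshold 1 single-library value was higher (KLF2, 100 nM dCBP at 6 h) and 70 were lower, beside 5.8% and 4.44% of the values of all genes. The cause of these moves was not tested. Leaving out 1 library gave 0 to 4 (A485), 5 to 8 (dCBP) and 5 to 9 (IHK-44) against DMSO. It gave 0 to 5 for A485 minus dCBP, minus IHK-44 and minus JQAD, 8 to 10 for dCBP minus JQAD and 7 to 9 for IHK-44 minus JQAD. At 2 h it gave 0 to 6 (A485), 0 to 8 (dCBP) and 0 to 7 (IHK-44), and at 6 h 0 to 7, 7 to 9 and 8 to 9. The time differences gave 0 to 2 (A485), 0 to 2 (dCBP) and 0 to 3 (IHK-44), and the A485 dose difference 0 to 3. A485 counts moved by over 1.5 times without single A485 libraries, among others: without 100 nM A485 at 6 h, A485 minus DMSO gave 4 and minus JQAD 5, and without 1000 nM A485 at 2 h, A485 minus dCBP gave 5, minus IHK-44 5 and minus JQAD 0. For called members, 15 of 481 combinations of member, comparison and other setting lost the call. With a library left out, 174 of 1632 combinations lost it. The calls of list genes were not checked in this way. Scaling to the coding total moved the median of all genes from 0.05 to 0.16 (dCBP minus DMSO), from 0.04 to 0.16 (IHK-44 minus DMSO), from 0.06 to 0.22 (dCBP at 6 h) and from 0.06 to 0.23 (IHK-44 at 6 h). Replicates could not be paired because the labels give no replicate numbers to pair on. The doses were compared within compound and time as blocks. Compounds were compared with a term for time and none for dose, so their matched doses were not used as pairs. Depth limits KLF4 at its lowest, with 23 counts.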
